A study of Mus musculus with 8 samples.

Results

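The matrix metalloproteinases (MMPs), the ADAM and ADAMTS proteases, the ADAMTS-like proteins and the tissue inhibitors of metalloproteinases (TIMPs) were examined in TGF-β treated mouse kidney cells that had received ad-CRE or ad-GFP. Members were the rows of the deposited gene table whose symbol begins with Mmp, Adam, Adamts or Adamtsl followed by a digit, or is Timp1 to Timp4, and which had at least 20 reads over the 8 libraries. The symbol pattern was met by 85 of 22274 rows, of which 58 reached the read minimum: 18 MMPs, 16 ADAMs, 16 ADAMTS proteases, 5 ADAMTS-like genes and 3 TIMPs. Mmp8 with 20 reads lay just inside the minimum, and Adam30 and Adam32 with 19 reads each lay just outside. Of the 27 symbols left out, 12 had 0 reads in every library, among them Mmp1a and Mmp1b, and Timp4 had 6 reads in all.

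RNA was sequenced from a line labelled RFB, from kidney, given as fibroblasts. All 8 libraries come from cells treated with TGF-β, the cytokine best known for turning on matrix production in fibrosis. For 4 libraries the treatment label adds ad-GFP, a green fluorescent protein control, and for 4 it adds ad-CRE, Cre being the recombinase that acts on loxP sites. The labels give no floxed allele for Cre, and no library without TGF-β is among the 8. The targeted gene, by the title and design text of the series, is Suv39h1, a methyltransferase of histone H3 lysine 9. Separate cultures are not named in the labels, so the spread that p-values rest on is that of these libraries and may be technical. Where 4 values are listed for a group, they follow the order of replicates 1 to 4.

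Totals ranged from 15998257 to 22297598 counts per library. Suv39h1 had 41.5 ± 3.16 CPM (reads scaled by library size) in ad-GFP against 32.5 ± 0.795 in ad-CRE (SD, n = 4 each; log2 fold change −0.35, SE 0.053, edgeR adjusted p = 8.65e-07). Smarca4, which encodes the chromatin remodelling ATPase BRG1, was at 288 ± 11.1 and 34.3 ± 3.2 CPM (SD, n = 4 each; log2 fold change −3.07, SE 0.044, edgeR adjusted p = 3.82e-31). The named target thus kept most of its reads and Smarca4 did not. Reads per gene do not show whether part of a gene was removed, and reads per exon were not examined. Which gene ad-CRE removed was not tested, and the groups are called only by their labels. Transcripts of several cell types were found in this line given as fibroblasts. The summed level of 10 fibroblast markers was 259 to 299 CPM in ad-GFP and 116 to 124 CPM in ad-CRE, with the fibroblast matrix gene Lum at 1 read in all. Col1a1 alone went from 170 to 59.7 CPM in that sum. Of the 8 fibroblast markers tested, 7 fell, while Pdgfra rose from 3.79 to 4.85 CPM. The sum of 11 tubule epithelial markers was 2099 to 2335 and 4845 to 5033 CPM, with Aqp2 at 0. Krt8 alone went from 745 to 1983 CPM in that sum. The proximal tubule gene Lrp2 fell from 81.5 to 55.5 CPM, and Slc34a1 had 2 reads in ad-GFP and 1 in ad-CRE. The sum of 5 endothelial markers was 129 to 143 and 58.9 to 66.5 CPM, and that of 6 leukocyte and macrophage markers was 217 to 249.2 and 155 to 163 CPM. None of these sums overlapped between groups. Taken singly, 66.2% of all genes tested did not overlap either, a share for single genes that was not computed for sums. In bulk libraries, fewer cells of a type and less RNA per cell cannot be told apart.

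MMPs are zinc endopeptidases that cut collagens and other matrix proteins. They are made as inactive precursors, in which a cysteine of the propeptide blocks the zinc. ADAMs are mostly membrane-anchored relatives that release the outer parts of growth factors, receptors and adhesion molecules, while ADAMTS proteases are secreted and act on proteoglycans, procollagens and microfibril proteins. TIMPs bind the active site of these enzymes. In fibrotic kidney, this system is known both for removing matrix and for freeing growth factors that fibroblasts and tubule cells respond to.

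Of 10 Mmp genes that lie in 1 cluster on chromosome 9 (GRCm38, 7272514 to 7699585, GENCODE release M21), 6 are members. Of these, 4 hold the letters TGANTCA, with N any base, shortly before a start site. This pattern includes the recognition sequence of AP-1 (Fos and Jun) factors but is wider than it. These stretches are shown because the cluster holds both the member with the most negative fold change of all those tested, Mmp10, and a member that did not pass, Mmp13. Each line gives the 100 bases before a RefSeq start site, from the plus strand of GRCm38.p6, with the match in capitals.
Mmp13, chr9:7272414-7272513: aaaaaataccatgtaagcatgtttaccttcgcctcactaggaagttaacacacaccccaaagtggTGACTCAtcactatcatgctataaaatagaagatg
Mmp12, chr9:7347274-7347373: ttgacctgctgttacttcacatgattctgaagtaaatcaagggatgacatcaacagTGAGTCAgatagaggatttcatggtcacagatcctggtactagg
Mmp3, chr9:7445722-7445821: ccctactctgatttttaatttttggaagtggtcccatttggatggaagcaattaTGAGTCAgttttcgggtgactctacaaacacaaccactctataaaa
Mmp10, chr9:7502242-7502341: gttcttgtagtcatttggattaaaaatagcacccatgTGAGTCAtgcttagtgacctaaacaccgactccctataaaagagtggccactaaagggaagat

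Counted from the start site, the match begins at −35 in Mmp13, −44 in Mmp12, −46 in Mmp3 and −63 in Mmp10. Mmp12 has 2 start sites in the RefSeq table and only the window of the downstream one holds the match. TGANTCA reads the same on both strands, so 1 search covers both. In windows from 250 bases before to 50 after the start, it was found for 6 of 38 members with a window (15.8%), and for 8.97% of all genes in that table. All matches in members read TGAGTCA or TGACTCA, while the share of all genes counts any base at N. The other 2 members are Adam19, with the match at −131, and Adam1b, with the match 20 bases after the start. By call, a match was found in 0 of 9 members that rose, 3 of 10 that fell, 2 of 11 that did not pass and 1 of 8 not tested. The 3 that fell are Mmp10 and Mmp12, from the same cluster, and Adam1b. Shares of all genes by call were not counted, so no link between match and call is drawn. A match describes letters only, and binding was not measured.

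Of the 58 members, 47 had enough reads for the test (the edgeR quasi-likelihood test with Benjamini-Hochberg adjustment over all 13702 genes tested, threshold 0.05). In ad-CRE, 12 rose, 19 fell and 16 did not pass. Over all genes tested 73.1% passed, 36.8% rose and 36.3% fell, against 66%, 25.5% and 40.4% of the members tested. The share of members that passed was thus no larger than in the table as a whole. The median log2 fold change of the members tested was −0.25, against 3.87e-05 for all genes tested. Falls of 1 log2 unit or more were found in 11 members (23.4%) and in 9.43% of all genes, and rises of that size in 3 members (6.38%) and in 4.84% of all genes. The 2 groups did not overlap in 31 of the members tested (66%) and in 66.2% of all genes.

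Most members that fell by 1 log2 unit or more were at a low level. Among 22 members with a mean under 10 CPM, 1 rose, 9 fell and 12 did not pass, and 8 of the falls were of that size. Among all genes under 10 CPM, 39.3% fell, 25.2% rose and 21% fell by at least 1 log2 unit. Among 25 members at 10 CPM or more, 11 rose, 10 fell and 4 missed the threshold. Their median log2 fold change was −0.02, and 3 fell by at least 1 log2 unit. Among all genes at that level 42.1% rose, 35% fell and 4.22% fell by that much. Of the members tested, 8 reached the filter's level in fewer than 4 libraries of 1 group. Among them are 5 that fell and entered the test only through ad-GFP, the group where they are high: Mmp16, Mmp19, Adam1b, Adam23 and Adam4, of which all but Adam4 are among the 11 falls of 1 log2 unit or more. Those falls are therefore given as a description.

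**Figure D1:**
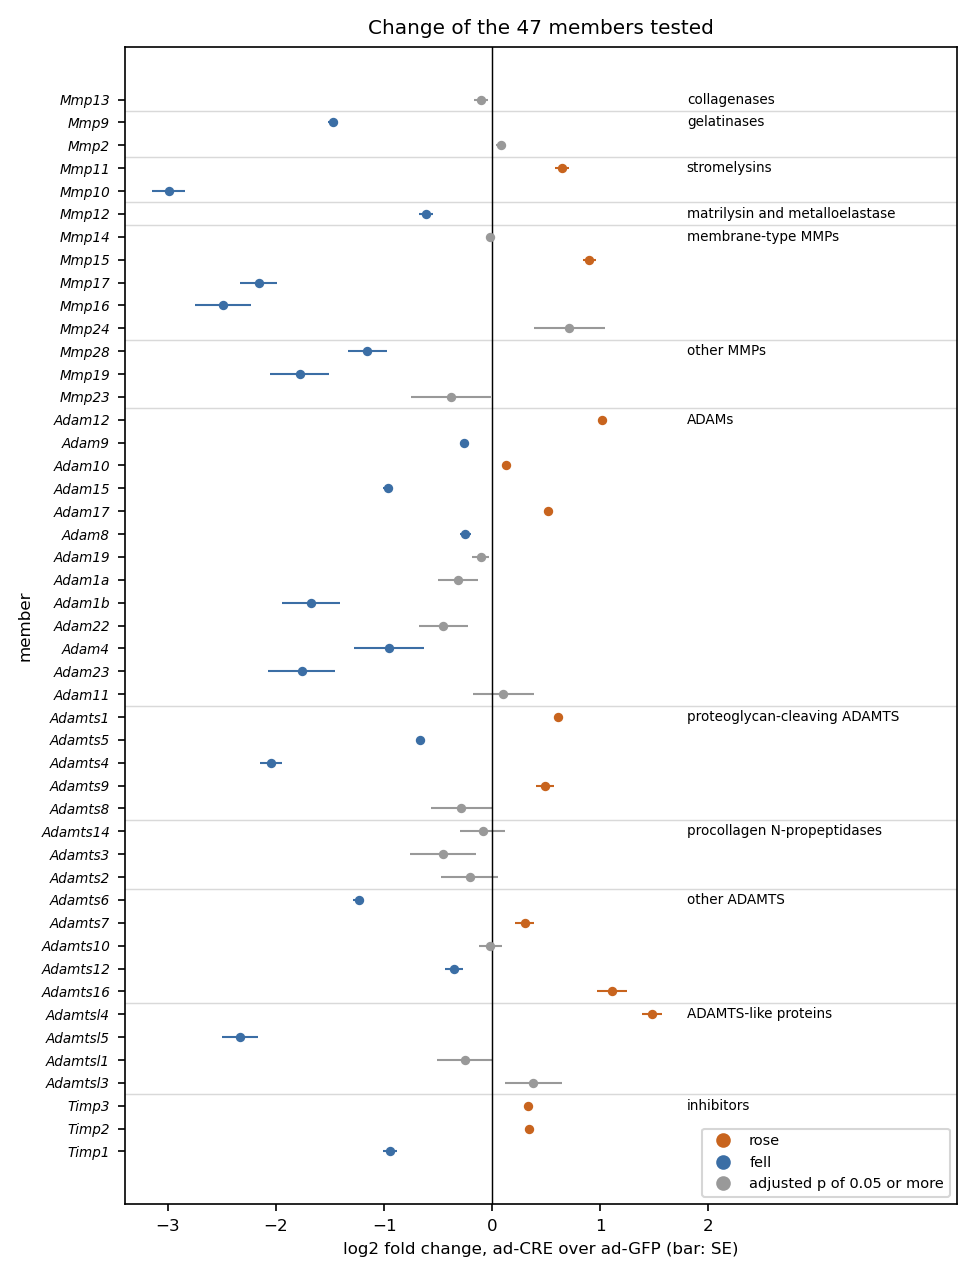
Log2 fold change, ad-CRE over ad-GFP, of the 47 members tested, grouped by role, with bars for the SE, in orange for members that rose, blue for those that fell and grey for those that did not pass. Points left of 0 are lower in ad-CRE: Mmp10 lies farthest left at −2.99 and Adamtsl4 farthest right at 1.48, and each role with more than 3 members tested holds changes in both directions.

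The collagenase that cuts fibrillar collagen in rodents, Mmp13, did not pass. Its level was 33.5, 38.1, 38.1 and 29.2 CPM in ad-GFP and 33.8, 32.6, 31.5 and 31.6 CPM in ad-CRE. The ad-CRE values all lay within the ad-GFP range (log2 fold change −0.10, SE 0.062, adjusted p = 0.135). Without ad-GFP replicate 4, the lowest, the log2 fold change was −0.17 and passed (edgeR adjusted p = 0.00896). Mmp8, the collagenase of neutrophils, had 15 reads in the ad-GFP and 5 in the ad-CRE libraries and was not tested.

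The gelatinases, which cut denatured collagen and type IV collagen of basement membranes, parted. Mmp9 (ENSMUSG00000017737, chromosome 2, 164940780 to 164955850, plus strand) was at 108, 105, 102 and 103 CPM in ad-GFP and at 35.1, 34.9, 41.6 and 39.5 CPM in ad-CRE. Every ad-CRE library lay below every ad-GFP library, and the mean fell 2.77-fold, from 105 ± 2.82 to 37.8 ± 3.31 CPM (SD, n = 4 each; log2 fold change −1.47, SE 0.047, adjusted p = 1.80e-22). Mmp2 (chromosome 8, 92827291 to 92853420, plus strand) was at 64.3, 59.6, 68.6 and 59.6 CPM in ad-GFP and at 63.1, 69.6, 68.8 and 64.5 CPM in ad-CRE. The groups overlapped (log2 fold change 0.08, SE 0.046, adjusted p = 0.133). Without ad-GFP replicate 3 it passed, at 0.12 (edgeR adjusted p = 0.0228).

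Among the stromelysins, proteases of broad substrate range, Mmp10 and Mmp11 changed in opposite directions. Mmp10 (ENSMUSG00000047562, chromosome 9, 7502352 to 7510240, plus strand) was at 10.8, 9.29, 10.8 and 9.26 CPM in ad-GFP and at 1.04, 1.77, 1.11 and 1.15 CPM in ad-CRE. It rests on 748 and 101 reads, with no overlap between groups, and fell 7.93-fold (log2 fold change −2.99, SE 0.151, adjusted p = 2.76e-17). Mmp11, which furin activates before secretion, was at 16.9, 16.2, 14.1 and 18.0 CPM in ad-GFP and at 25.5, 26.0, 26.7 and 23.7 CPM in ad-CRE. All ad-CRE libraries lay above all ad-GFP libraries (log2 fold change 0.64, SE 0.067, adjusted p = 6.11e-10). Exons of Mmp11 overlap those of Chchd10 on the opposite strand, which fell (−1.16). Mmp3, from the same cluster as Mmp10, had 40 reads in ad-GFP and 2 in ad-CRE, a ratio of 0.0462 (95% interval 0.00541 to 0.178, exact binomial, counting error only), and was not tested.

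Mmp12, the metalloelastase first known from macrophages (ENSMUSG00000049723, chromosome 9, 7344381 to 7369499, plus strand), stood at 90.4, 105, 117 and 89.8 CPM in ad-GFP and at 71.1, 60.8, 68.9 and 61.4 CPM in ad-CRE. The highest ad-CRE library lay below the lowest ad-GFP library, and the mean fell 1.53-fold, from 101 ± 13.0 to 65.5 ± 5.21 CPM (SD, n = 4 each; log2 fold change −0.61, SE 0.060, adjusted p = 1.97e-10). Of the 6 leukocyte and macrophage markers tested, 5 fell, 1 did not pass and 0 rose (median −0.54), where 36.3% of all genes tested fell. The sizes differed: Ptprc had −0.13 and did not pass (edgeR adjusted p = 0.22), and Itgam fell by only 0.24 on the log2 scale. Both were singled out after their values were seen. Lyz2, the macrophage lysozyme, went from 101 ± 6.82 to 68.4 ± 2.16 CPM and Csf1r, the receptor for macrophage colony-stimulating factor, from 57.1 ± 4.69 to 39.8 ± 1.84 CPM (SD, n = 4 each). The part of these markers in the results was not tested.

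Of the other chromosome 9 cluster genes, Mmp27 had 32 reads in ad-GFP and 6 in ad-CRE, Mmp20 had 6 and 7, and Mmp7, the matrilysin of epithelia, had 3 and 12. None of them was tested. Reads over the whole cluster came mostly from Mmp12 and Mmp13, with 10874 in all in the ad-GFP and 8030 in the ad-CRE libraries.

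The membrane-type MMPs are held at the cell surface, where MMP14 activates the MMP2 precursor. Mmp14 (ENSMUSG00000000957, chromosome 14, 54431612 to 54445364, plus strand) was the most abundant member of all 58 in ad-GFP by FPKM, the deposited value scaled by transcript length and library size. Its level was 264, 260.4, 259 and 257 CPM in ad-GFP and 253, 258, 263 and 252 CPM in ad-CRE. The groups overlapped, with a log2 fold change of −0.02 (SE 0.026, adjusted p = 0.537).

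Mmp15, another transmembrane form (chromosome 8, 95352268 to 95375080, plus strand), was at 29.4, 25.5, 24.0 and 26.4 CPM in ad-GFP and at 48.7, 51.0, 51.7 and 45.4 CPM in ad-CRE. It rose 1.87-fold with no overlap between groups (log2 fold change 0.90, SE 0.057, adjusted p = 6.19e-15). Mmp16 and Mmp17, transcribed at low levels, fell. Mmp17, which is tied to the membrane by a lipid anchor, went from 5.68 ± 0.764 to 1.27 ± 0.208 CPM and Mmp16 from 2.90 ± 0.232 to 0.502 ± 0.252 CPM (SD, n = 4 each), log2 fold changes of −2.16 and −2.49. Neither overlapped between groups, although Mmp16 rests on only 41 reads in ad-CRE. Mmp24 had 0.71 on 109 reads and did not pass (adjusted p = 0.0534), but passed without ad-GFP replicate 4 (0.89), ad-CRE replicate 1 (0.80) or ad-CRE replicate 4 (0.85). Mmp25, with 46 reads in all, was not tested.

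Among other MMPs, Mmp28, also called epilysin, was at 4.59, 3.52, 3.63 and 5.28 CPM in ad-GFP and at 2.49, 1.77, 1.53 and 1.79 CPM in ad-CRE. It fell 2.25-fold with no overlap between groups (log2 fold change −1.16, SE 0.183, adjusted p = 1.65e-06). Mmp19 fell as well (−1.78, 155 reads in ad-GFP and 48 in ad-CRE), and Mmp23 had −0.38 and did not pass (adjusted p = 0.352). Exons of Mmp28 overlap those of 1700020L24Rik on the opposite strand, which fell (−1.49) from 0.868 to 0.31 CPM. Exons of Mmp19 overlap those of Tmem198b on the opposite strand, which rose (0.45) from 10.5 to 14.3 CPM.

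**Figure D2:**
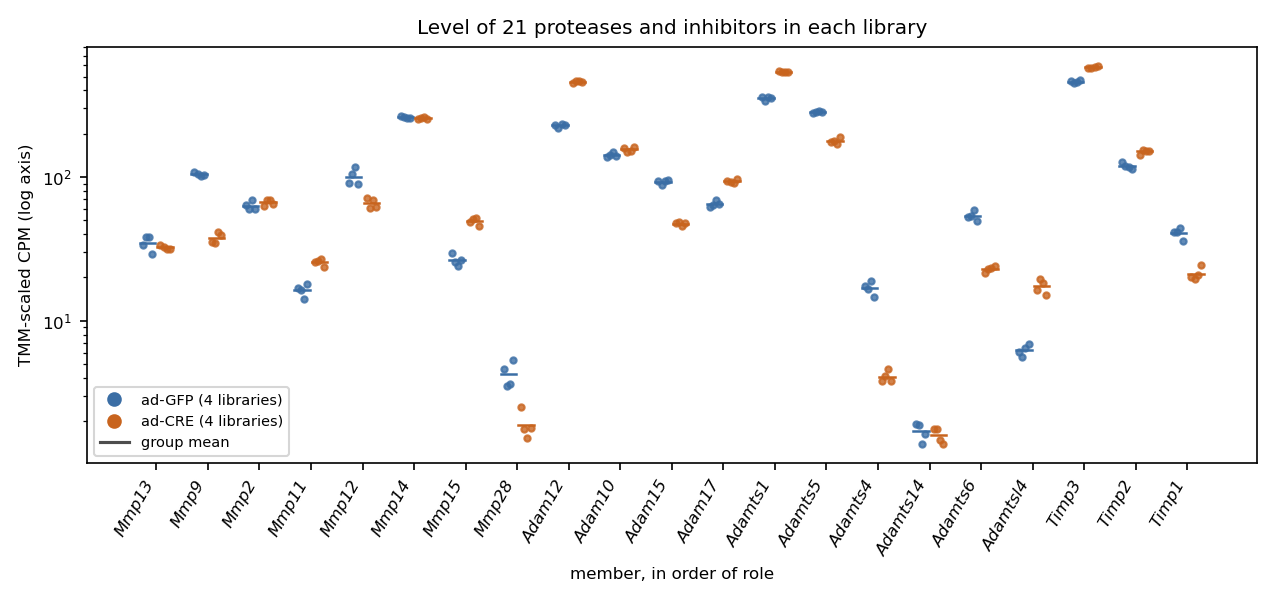
TMM-scaled CPM (log axis) of 21 members in each library, with 4 ad-GFP libraries in blue, 4 ad-CRE libraries in orange and a bar for each group mean. Adam12 and Adamts1 lie higher in all ad-CRE libraries, Mmp9, Adam15, Adamts4 and Timp1 lie lower, and Mmp14, Mmp2, Mmp13 and Adamts14 overlap.

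Of all 13 ADAMs tested, 3 rose, 6 fell and 4 did not pass, so that 69.2% passed against 73.1% of all genes tested. Adam12, a protease and adhesion protein of activated fibroblasts (ENSMUSG00000054555, chromosome 7, 133883199 to 134232146, minus strand), was at 229, 220.4, 234 and 229 CPM in ad-GFP and at 449, 465, 467 and 461 CPM in ad-CRE. It rose 2.02-fold, from 228 ± 5.75 to 460.4 ± 8.07 CPM (SD, n = 4 each; log2 fold change 1.01, SE 0.026, adjusted p = 9.43e-25), and the other ADAMs that rose, Adam10 and Adam17, did so by less. Of the 8 fibroblast markers tested, 7 fell and 1 rose in the same libraries, where 36.3% of all genes tested fell.

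Adam17, which releases TNF and ligands of the EGF receptor (chromosome 12, 21323509 to 21373632, minus strand), was at 61.9, 64.1, 68.9 and 65.1 CPM in ad-GFP and at 93.1, 92.9, 90.2 and 96.4 CPM in ad-CRE. It rose 1.43-fold with no overlap between groups (log2 fold change 0.52, SE 0.039, adjusted p = 3.29e-13). Genes for proteins that carry ADAM17 to the cell surface rose too, singled out after their values were seen: Rhbdf1 by 0.47, Rhbdf2 by 0.33 and Frmd8 by 0.35 on the log2 scale. Of all genes tested, 36.8% rose. In the list of activators and partners that holds these genes, 12 rose, 6 fell and 4 did not pass. Adam10, the protease that starts Notch receptor cleavage (chromosome 9, 70678997 to 70780229, plus strand), was at 137, 143, 149 and 140.5 CPM in ad-GFP and at 159.7, 150.2, 151 and 162 CPM in ad-CRE. The lowest ad-CRE library lay only just above the highest ad-GFP library, and the rise was small (log2 fold change 0.13, SE 0.033, adjusted p = 0.000721). On the log2(FPKM + 1) scale it had 0.08 and did not pass (limma adjusted p = 0.0897).

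Adam15, a disintegrin protease of epithelial and endothelial junctions (chromosome 3, 89338542 to 89349996, minus strand), was at 94.2, 87.6, 93.0 and 95.3 CPM in ad-GFP and at 47.8, 48.4, 45.5 and 47.6 CPM in ad-CRE. It fell 1.96-fold with no overlap between groups (log2 fold change −0.97, SE 0.040, adjusted p = 1.67e-19). Of all genes tested, 36.3% fell and 36.8% rose. Endothelial markers fell in 5 of 5 genes beside Adam15, with a median of −1.06. Of the 9 tubule epithelial markers tested, 7 rose, 1 fell and 1 did not pass. The part of either in the level of Adam15 was not tested. Adam9 and Adam8 fell by 0.26 and 0.25 on the log2 scale, and Adam19 had −0.11 and did not pass (adjusted p = 0.206).

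The ADAMs without catalytic activity, known from neurons, were near the limit of detection. Adam23 fell from 1.28 ± 0.0925 to 0.367 ± 0.158 CPM (SD, n = 4 each; 95 and 30 reads), while Adam22 (−0.45, adjusted p = 0.0707) and Adam11 (0.10, adjusted p = 0.754) did not pass. Adam22 passed without ad-GFP replicate 2 (−0.56) or ad-CRE replicate 2 (−0.59). Genes known from testis had few reads: Adam1b fell (−1.68, 172 and 58 reads) and Adam4 fell (−0.96, 74 and 41 reads), whereas Adam1a had −0.32 (adjusted p = 0.119). Without ad-GFP replicate 2, Adam4 had −0.78 and did not pass (edgeR adjusted p = 0.0552). Adam1a lies 15.1 kb from Adam1b and shares exon stretches with Mapkapk5 on the same strand, so its reads cannot be assigned with certainty. Adam5, Adam21 and Adam28 had 61, 72 and 29 reads in all and were not tested.

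The proteoglycan-cleaving ADAMTS proteases, which cut versican and aggrecan, include neighbours that changed in opposite directions. Adamts1 and Adamts5 lie on the minus strand of chromosome 16, 53.1 kb apart. Adamts1 (ENSMUSG00000022893, 85793827 to 85803113) was at 358, 339, 361 and 355 CPM in ad-GFP and at 548, 539, 535 and 536 CPM in ad-CRE. It rose 1.53-fold with no overlap between groups (log2 fold change 0.61, SE 0.025, adjusted p = 1.22e-19).

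Adamts5 (ENSMUSG00000022894, 85856173 to 85901828) was at 279, 282, 286 and 284 CPM in ad-GFP and at 175, 178, 169 and 188 CPM in ad-CRE. It fell 1.59-fold, again with no overlap (log2 fold change −0.67, SE 0.030, adjusted p = 8.92e-19). By FPKM, Adamts1 made up 62.2% of the summed level of the ADAMTS members in ad-GFP and 79.5% in ad-CRE, and Adamts5 made up 20.5% and 10.6%.

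Adamts4, the third enzyme known as an aggrecanase (chromosome 1, 171250421 to 171260637, plus strand), was at 17.4, 16.6, 18.8 and 14.7 CPM in ad-GFP and at 3.80, 4.11, 4.58 and 3.80 CPM in ad-CRE. It fell 4.14-fold with no overlap between groups (log2 fold change −2.05, SE 0.101, adjusted p = 1.42e-17). Adamts9 rose by 0.49 on the log2 scale (adjusted p = 7.98e-06), Adamts8 had −0.28 and did not pass (adjusted p = 0.362), and Adamts15 with 63 reads was not tested.

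The procollagen N-propeptidases, which trim fibrillar procollagens, were all weakly transcribed and none passed. Adamts14 was at 1.89, 1.89, 1.38 and 1.62 CPM in ad-GFP and at 1.76, 1.77, 1.48 and 1.38 CPM in ad-CRE, so the groups overlapped (log2 fold change −0.09, SE 0.210, adjusted p = 0.712). Adamts3 had −0.46 (SE 0.304, adjusted p = 0.175) and Adamts2 had −0.21 (SE 0.262, adjusted p = 0.476). Changes near these SEs, and larger ones too, could be missed at this depth. Mmp24, for example, had 0.71 with an SE of 0.331 and did not pass. Of their substrates, Col1a1 fell by 1.51 and Col1a2 by 0.98 on the log2 scale, as did Col3a1, singled out after its values were seen, by 1.22. Col2a1, also singled out, had −0.52 at under 1 CPM and did not pass (edgeR adjusted p = 0.129). Of all genes tested, 36.3% fell.

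Among other ADAMTS proteases, Adamts6 (ENSMUSG00000046169, chromosome 13, 104287835 to 104496695, plus strand) was at 52.9, 53.4, 59.1 and 49.3 CPM in ad-GFP and at 21.5, 22.8, 23.1 and 23.9 CPM in ad-CRE. It fell 2.35-fold with no overlap between groups (log2 fold change −1.24, SE 0.055, adjusted p = 1.02e-18). Its closest relative Adamts10, which acts on fibrillin microfibrils, had −0.02 and did not pass (adjusted p = 0.892). Adamts7 and Adamts12, another related pair, changed in opposite directions, by 0.30 (adjusted p = 0.00221) and −0.35 (adjusted p = 0.000486), and on the log2(FPKM + 1) and log2(FPKM + 0.1) scales Adamts7 did not pass. Adamts16 rose from 2.94 ± 0.480 to 6.40 ± 0.624 CPM (SD, n = 4 each), a 2.17-fold rise (adjusted p = 2.69e-08). Adamts17, with 19 reads in ad-GFP and 49 in ad-CRE, and Adamts18, with 20 and 15, were not tested.

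The ADAMTS-like proteins lack the protease domain and bind to matrix, in particular to fibrillin microfibrils. Adamtsl4 (chromosome 3, 95676201 to 95687917, minus strand) was at 6.06, 5.61, 6.46 and 6.89 CPM in ad-GFP and at 16.5, 19.6, 18.2 and 15.1 CPM in ad-CRE. It rose 2.77-fold with no overlap between groups, the largest rise of all members tested (log2 fold change 1.48, SE 0.094, adjusted p = 8.68e-15). Adamtsl5 went the other way, from 6.24 ± 0.555 to 1.23 ± 0.280 CPM (SD, n = 4 each; log2 fold change −2.33, adjusted p = 1.70e-13). Adamtsl1 (−0.25) and Adamtsl3 (0.38) did not pass, although Adamtsl3 did without ad-GFP replicate 1 (0.72) and Adamtsl1 did on the log2(FPKM + 0.1) scale (−0.58, limma adjusted p = 0.0465). Adamtsl2, with 21 reads, was not tested. Fbn1, which encodes fibrillin and was chosen after seeing its values, fell by 0.86 on the log2 scale, whereas Fbn2, the other fibrillin gene of that list, rose by 2.20 from a low level (1.36 to 6.34 CPM).

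The inhibitors changed by less than many of the proteases, and not all in the same direction. Timp1, the inhibitor that forms complexes with the MMP9 precursor and marks fibrotic tissue (ENSMUSG00000001131, chromosome X, 20870166 to 20874735, plus strand), was at 41.3, 41.4, 44.0 and 35.8 CPM in ad-GFP and at 20.2, 19.4, 20.8 and 24.3 CPM in ad-CRE. It fell 1.92-fold, from 40.6 ± 3.43 to 21.2 ± 2.16 CPM (SD, n = 4 each; log2 fold change −0.95, SE 0.064, adjusted p = 3.92e-14), with no overlap between groups. Timp3, which stays bound to matrix and also inhibits ADAM17 and the aggrecanases (chromosome 10, 86300372 to 86349506, plus strand), was at 462, 448, 462 and 473 CPM in ad-GFP and at 572, 576, 579.5 and 593 CPM in ad-CRE. All ad-CRE libraries lay above all ad-GFP libraries, and the rise was 1.26-fold (log2 fold change 0.33, SE 0.024, adjusted p = 2.09e-13).

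Timp2, the partner of MMP14 in activating the MMP2 precursor (ENSMUSG00000017466, chromosome 11, 118301069 to 118355740, minus strand), was at 127, 119, 117 and 114 CPM in ad-GFP and at 143, 155, 153 and 153 CPM in ad-CRE. In counts it rose 1.26-fold with no overlap between groups (log2 fold change 0.34, SE 0.035, adjusted p = 5.42e-10). In FPKM it did not: the values were 46.5, 41.2, 45.6 and 45.3 in ad-GFP and 40.4, 42.0, 46.4 and 45.5 in ad-CRE, and the groups overlapped. On the log2(FPKM + 1) scale the difference was −0.03 (limma adjusted p = 0.564).

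The transcript length that joins a library's count to its FPKM differed between groups for Timp2. It was 2753, 2921, 2598 and 2527 bases in ad-GFP and 3509, 3652, 3255 and 3314 bases in ad-CRE, a ratio of means of 1.27 with no overlap. For Timp3 it was 4722 bases in every library. GENCODE M21 lists 2 protein-coding Timp2 transcripts, of 3709 and 718 bases. Of 5776 genes with at least 500 reads in each library, 13 (0.225%) had a length ratio as far from 1 on the log2 scale, and the largest absolute log2 ratio among the other 13 members with that many reads was 0.029, against 0.347 for Timp2. Which transcripts gave the reads was not tested, and a direction for Timp2 therefore depends on whether reads or reads per length are compared.

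**Figure D3:**
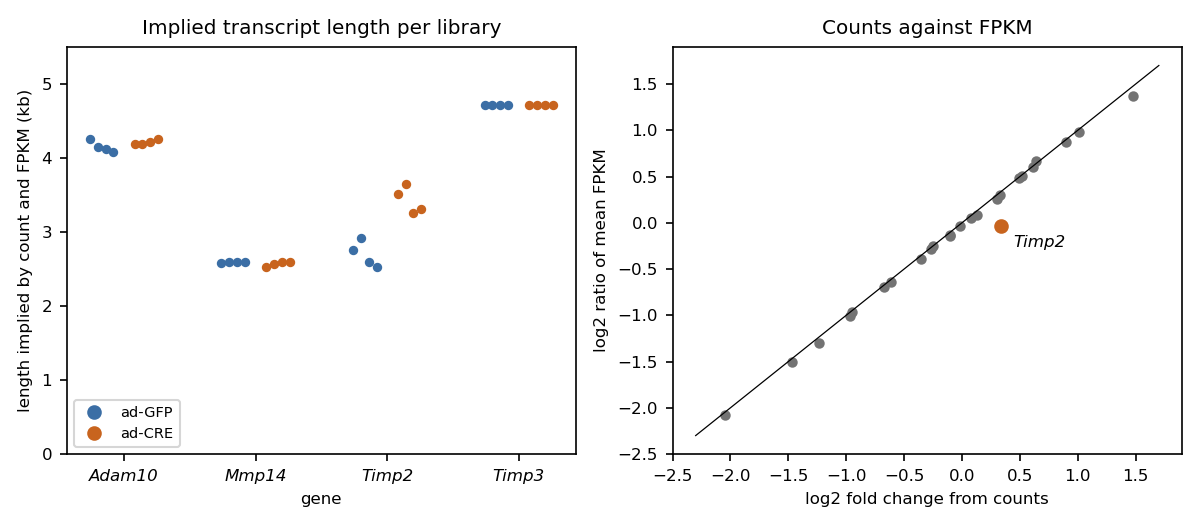
Left, the transcript length (kb) implied by count and FPKM in each library for 4 members, ad-GFP in blue and ad-CRE in orange; right, log2 fold change from counts against log2 ratio of mean FPKM for the 25 members at 10 CPM or more, with a line of equality. Timp2 is higher in all ad-CRE libraries on the left and lies below the line on the right, at 0.34 and −0.03, while Timp3 has the same length in all 8 libraries.

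Levels of different genes were compared per length, in FPKM. In ad-GFP the order was led by Mmp14 (101 ± 1.45), Timp3 (98.6 ± 2.01), Adamts1 (80.2 ± 2.20) and Mmp12 (70.8 ± 9.11), and in ad-CRE by Adamts1 (122 ± 1.39), Timp3 (122 ± 1.74), Mmp14 (98.9 ± 1.85) and Adam12 (59.7 ± 1.01; SD, n = 4 each). The means of Mmp14 and Timp3 in ad-GFP, and those of Adamts1 and Timp3 in ad-CRE, lie within the SDs of each other or close to them. Adam12 went from place 11 to place 4, Mmp9 from place 9 to place 17 and Timp1 from place 5 to place 9. Mmp14 made up 38.5% of the summed MMP level in ad-GFP and 46.3% in ad-CRE, and Mmp9 made up 12.7% and 5.51%.

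Summed over their members in FPKM, MMPs were at 261.2, 267.4, 274.4 and 249.4 in ad-GFP and at 216, 212, 221 and 206 in ad-CRE. TIMP sums from the deposited FPKM overlapped, at 194, 186, 196 and 188 in ad-GFP and 184, 185, 192 and 198 in ad-CRE. That overlap depends on the Timp2 length: with the mean of its 8 implied lengths in every library, an alternative chosen after seeing the data, the sums were 180.1 to 189.2 in ad-GFP and 189.5 to 201.3 in ad-CRE, which do not overlap but nearly touch. The ratio of TIMP to MMP sums was 0.695 to 0.754 in ad-GFP and 0.851 to 0.959 in ad-CRE, means of 0.726 ± 0.0268 and 0.888 ± 0.0487 (SD, n = 4 each), with no overlap. With 1 Timp2 length the ratio was 0.688 to 0.724 and 0.878 to 0.977. ADAMTS sums were 126 to 133 and 152 to 154, and ADAM sums 176 to 180.0 and 186 to 189.7, also without overlap. A few genes carry these shifts. Mean Adamts1 went from 80.2 to 122 and Adam12 from 30.2 to 59.7, each by more than its family's sum. In the MMP sum, Mmp12 went from 70.8 to 45.5 and Mmp9 from 33.4 to 11.8. The families thus did not change as wholes. These sums are a description, without a test, and say nothing of protein or of enzyme activity.

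**Figure D4:**
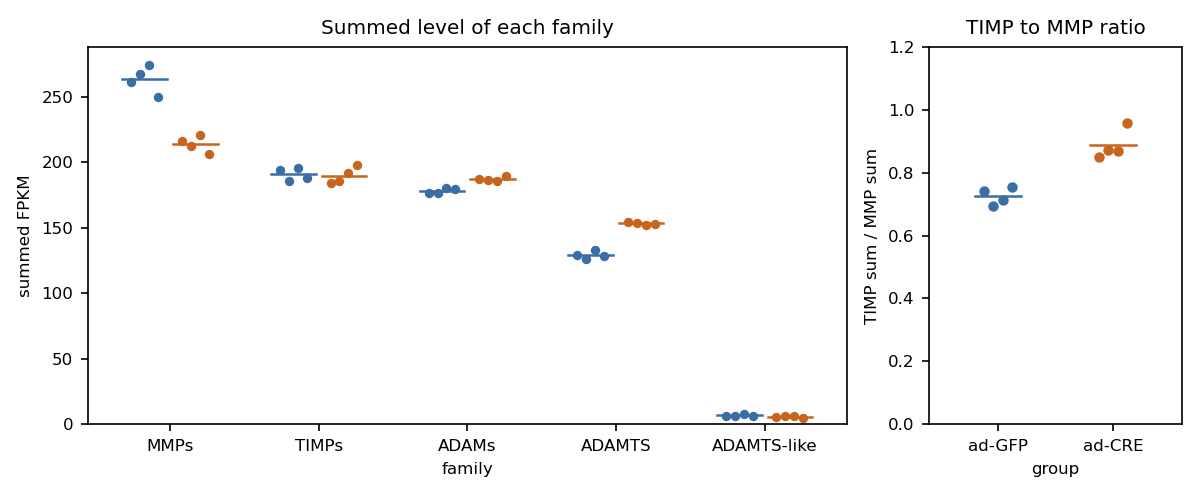
Left, FPKM summed over the members of each family in each library, ad-GFP in blue and ad-CRE in orange with a bar for each mean; right, the ratio of the TIMP to the MMP sum. MMP sums of the ad-CRE libraries lie below all ad-GFP values, TIMP sums overlap with the deposited Timp2 values (with 1 Timp2 length they do not), and the ratio is higher in all ad-CRE libraries.

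Genes that act with these proteases were read from lists. Each count stands beside the share of all genes tested, of which 36.8% rose and 36.3% fell. Among 22 activators, partners and other inhibitors, 12 rose, 6 fell and 4 missed the threshold (median log2 fold change 0.32). Plau, encoding urokinase, which makes plasmin and so activates several MMP precursors, rose by 2.44, whereas Plat, encoding the other plasminogen activator, fell by 0.97. St14, encoding the membrane serine protease matriptase, rose by 1.21, while the protease inhibitor gene Serpine2 fell by 2.01. Furin and Reck were singled out after their values were seen. Furin, the convertase that activates ADAMs and membrane-type MMPs, had 0.05, and Reck, a membrane-anchored MMP inhibitor, had 0.14, and neither passed (adjusted p = 0.248 and 0.473).

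For the next 3 lists, too, the shares over all genes tested were 36.8% that rose and 36.3% that fell. Of 31 membrane proteins known to be shed by ADAMs, 18 rose, 10 fell and 3 missed the threshold (median 0.26). Notch3 rose by 2.10, Cdh1, encoding E-cadherin, by 1.25, Jag1 by 0.64 and App by 0.76, whereas Kitl, encoding stem cell factor, fell by 4.10 and the EGF receptor ligand gene Areg by 3.75. Of 19 matrix substrates, 5 rose, 12 fell and 2 missed the threshold (median −0.64). Nid1, encoding the basement membrane protein nidogen, fell by 2.35, Thbs1 rose by 0.87 and Fn1 by 0.36, and the versican gene Vcan, also singled out after its values were seen, had 0.03 and did not pass (adjusted p = 0.401). Of 11 other matrix-acting proteases, 3 rose, 6 fell and 2 did not pass, with Tll1, a procollagen C-proteinase gene, at −1.78 and the cathepsin gene Ctsl at −0.59.

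Of 17 AP-1, ETS, RUNX and NF-kB factors known to act on MMP promoters, 13 rose, 2 fell and 2 missed the threshold (median 0.45), where 36.8% of all genes tested rose and 36.3% fell. Junb rose by 0.59, Fosl2 by 0.44 and Runx2 by 1.22. Fosl1, singled out after its values were seen, fell by 1.13, from 18.6 ± 1.07 to 8.52 ± 0.752 CPM (SD, n = 4 each). Activity and binding of these factors were not measured.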

How the data were processed

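RNA was sequenced in 8 libraries, 4 per group. Per the file headers, the authors deposited 1 table of read counts per gene and library, FPKM values, the mean FPKM of each group, a log2 fold change, a p-value and an FDR. The authors' p-value, FDR and log2 columns were not used. The submitters' processing notes name GRCm38 and mm10. The sources used here name no aligner, counting tool, annotation or strand setting. Of the 58 members, 15 have exons overlapping a gene on the opposite strand, whose reads may be counted together.

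Counts were analysed with edgeR 4.0.16 in R 4.3.3 (group as the only term): filterByExpr, TMM factors, glmQLFit and glmQLFTest, with Benjamini-Hochberg adjustment. The SE is the log2 fold change divided by the square root of F. Alternatives were other scalings and filters, a replicate block, each library left out, DESeq2 1.42.0, and limma 3.58.1 on counts (voom) and on log2 FPKM with 1 or 0.1 added. The script was tested on simulated data. Positions come from GENCODE M21, and promoter windows from RefSeq (GRCm38.p6).

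The members and lists were chosen with earlier results of these data known. Values in every library are given for members that passed with a mean of at least 10 CPM and a change of at least 0.5 log2 units, for the most abundant of each role, and for Timp1 to Timp4, Mmp2, Mmp9, Mmp14, Adam10 and Adam17. Mmp10 and other members below that level were singled out after their values were seen. Replicates of 1 group were not copies of each other (chi-square over degrees of freedom 1.71 to 3.24 for pairs).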

Additional observations from a re-analysis of the deposited data

Results flagged for a closer look

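Timp2 in ad-CRE replicate 1, at 143 CPM, lay apart from the other ad-CRE libraries at 153 to 155 CPM, and still above all ad-GFP libraries. Without that library the log2 fold change of Timp2 was 0.36. This was the only such library in 42 sets of 4 values, 21 members in both groups, and chance flags about 5% of sets.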

How the results depend on the processing

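All 31 calls among the members tested stayed the same with DESeq2 size factors, scaling by total counts only, DESeq2 and limma voom. When each library was left out in turn, 12 to 14 members rose and 19 to 21 fell, with a median log2 fold change of −0.276 to −0.195, and of the 31 called members only Adam4 lost its call, without ad-GFP replicate 2. Without a filter on low counts, 58 members were tested, 13 rose and 23 fell. Depth limits the 22 members under 10 CPM most. With at least 5 CPM in 4 libraries, 29 members were tested, 12 rose and 12 fell, with a median of −0.043. All 12 rises of the main test were kept, but only 12 of its 19 falls, as the other falls lay below that level. Falls were 50% of the calls there and 61.3% in the main test. The excess of falls over rises thus lies mostly in low members: 1 rose and 9 fell under 10 CPM, against 11 and 10 at or above it. The comparison is of falls with rises among members, not with the share of all genes that fell at each level. On the log2(FPKM + 1) scale the median was −0.0983, the added 1 shrinking the change of low genes. Timp2 had −0.0345 on that scale and −0.0353 on the log2(FPKM + 0.1) scale, and Adam10 and Adamts7 lost their calls on both; the cause was not tested. With the replicate number as a block, 12 members rose and 19 fell, with a median of −0.252, and no call changed. The deviations of same-numbered libraries had correlations of −0.070 to 0.072, so the numbers were not taken to pair samples.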
